A study of Homo sapiens with 14 samples.

Results

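The genes described are 35 listed genes of the unfolded protein response and the integrated stress response, out of 24638 genes that were named in all 3 kinds of table deposited for IMR90 cells. They were chosen by name: 14 chaperones and folding factors of the endoplasmic reticulum (ER), 4 factors of ER-associated degradation (ERAD), the stress sensors with XBP1 (4 genes), 6 regulators of the ATF4 arm, and 7 amino acid and other targets. IMR90 cells are primary human fetal lung fibroblasts, and poly(A)-selected RNA was sequenced in 7 groups. I79 young, I79 old, I10 young and I10 old were untreated cells of 2 IMR90 isolates, young at low passage and old at high passage in replicative senescence. Each of these groups had 1 deposited column although 2 replicates were labelled. I79 ICM (2 libraries) was low-passage I79 treated with inflachromene, a compound known to bind HMGB1 and HMGB2, proteins that bend DNA in chromatin. WT (2 libraries, genotype wild type) and HMGB2 KD (2 libraries, HMGB2 knockdown by siRNA) came without a named isolate, and the labels do not say whether WT cells received a control siRNA.

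The unfolded protein response is started by 3 sensors in the ER membrane. ERN1 (IRE1) splices the XBP1 mRNA, ATF6 is released and cleaved into a transcription factor, and EIF2AK3 (PERK) phosphorylates the translation factor eIF2. XBP1 and ATF6 are known to switch on chaperone and ERAD genes. PERK shares its target with kinases that sense amino acid shortage, haem shortage and double-stranded RNA, and this common branch, the integrated stress response, lowers translation in general while raising that of ATF4. ATF4 then activates genes of amino acid synthesis and uptake, and regulators such as DDIT3 (CHOP), ATF3 and TRIB3. Senescent fibroblasts secrete many proteins, which is why the ER folding machinery is often followed in them. Since ATF4 is largely controlled at translation and ATF6 by cleavage, mRNA levels show only a part of either response.

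The branches leave their mark in promoter sequence. The sites are shown here because genes with and without ERSE or ERSE-II are set side by side later. RefSeq promoters (GRCh38.p14, 250 bases before to 50 after the start of transcription, read along the gene) were on hand for 34 of the 35 genes (all but PDIA3). The ER stress response element ERSE (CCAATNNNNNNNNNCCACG, both strands) was found in 7 of the 34 genes, while 0.0769% of all 35116 promoter entries hold it. The shorter ERSE-II (ATTGGNCCACG, both strands) was found in 3 of the 34 and in 0.0541% of all entries. Together 10 genes held one of these elements. All 10 are listed, in capitals within 8 flanking bases, and a site that reads CGTGG first lies on the opposite strand.
HSPA5 (chr9:125241383-125241417, minus strand): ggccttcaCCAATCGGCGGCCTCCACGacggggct
HSP90B1 (chr12:103930208-103930242, plus strand): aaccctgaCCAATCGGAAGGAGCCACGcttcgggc
PDIA6 (chr2:10812845-10812879, minus strand): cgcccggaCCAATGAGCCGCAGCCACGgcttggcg
CANX (chr5:179698770-179698804, plus strand): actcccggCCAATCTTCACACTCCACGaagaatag
CALR (chr19:12938376-12938410, plus strand): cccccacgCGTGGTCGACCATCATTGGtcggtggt
CRELD2 (chr22:49918546-49918580, plus strand): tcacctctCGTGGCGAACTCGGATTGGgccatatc
XBP1 (chr22:28800595-28800629, minus strand): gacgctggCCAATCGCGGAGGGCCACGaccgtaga
HYOU1, ERSE-II (chr11:119057266-119057292, minus strand): gcctgggaCGTGGTCCAATgagtacgc
HERPUD1, ERSE-II (chr16:56932017-56932043, plus strand): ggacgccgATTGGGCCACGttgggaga
SDF2L1, ERSE-II (chr22:21642106-21642132, plus strand): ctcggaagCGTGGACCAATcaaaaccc

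HSP90B1 and HYOU1 each held a second copy. The second HYOU1 copy overlaps the only match in these genes to the unfolded protein response element UPRE (TGACGTGG, both strands, 0.729% of all entries). Only exact matches were searched for, so looser copies of an element are not marked. The whole HSPA5 window (chr9:125241294-125241593, minus strand) is given with its exact ERSE match in capitals, since HSPA5 (BiP) is the chaperone that holds the 3 sensors inactive:
HSPA5: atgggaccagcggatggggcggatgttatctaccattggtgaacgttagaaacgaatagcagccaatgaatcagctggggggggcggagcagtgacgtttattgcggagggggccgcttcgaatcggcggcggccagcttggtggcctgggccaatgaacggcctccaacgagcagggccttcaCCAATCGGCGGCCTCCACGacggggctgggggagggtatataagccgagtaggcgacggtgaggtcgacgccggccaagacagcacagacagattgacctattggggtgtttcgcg

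The element read by ATF4 with C/EBP partners (CARE, TGATGNAA, both strands) is short and more common, at 3.62% of all entries. It was found in 5 of the 34 genes (ASNS, ATF3, CHAC1, HERPUD1 and SLC3A2), of which HERPUD1 also held ERSE-II. Those of CHAC1 and ATF3 are shown because both genes rose in both comparisons, and that of ASNS because it is a textbook target of ATF4. PPP1R15A, which recruits the phosphatase that reverses eIF2 phosphorylation, held instead the cyclic AMP response element (CRE, TGACGTCA, the same on both strands, 1.85% of all entries).
CHAC1 (chr15:40953254-40953277, plus strand): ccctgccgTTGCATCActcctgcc
ATF3 (chr1:212565208-212565231, plus strand): ggtcaggaTGATGGAAggctgtca
ASNS (chr7:97872461-97872484, minus strand): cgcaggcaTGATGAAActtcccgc
PPP1R15A, CRE (chr19:48872355-48872378, plus strand): tctcttcgTGACGTCAgcacgccg

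Depth was 14991385 to 20632959 estimated counts in the old and young columns, 33561766 to 41168932 counts in the WT and HMGB2 KD libraries, and 10971132 and 13290131 reads in the ICM libraries. All 10 fibroblast markers on the list were found at 1 or more in CPM (counts scaled per library) in each group, with summed levels between 12310 and 33900 CPM. Epithelial markers summed to at most 102.6 CPM, with SFTPC and NKX2-1 at 0 in every library. Endothelial markers summed to 66.3 and 95.8 CPM in young columns and 167 and 220.4 CPM in old ones, with CDH5 at 0 throughout. Leukocyte markers summed to 21.6 and 23.5 CPM in young columns and 84.9 and 157.7 CPM in old ones, with CD3E and MS4A1 at 0. Only 1 of the 6 leukocyte markers reached a mean of 1 CPM in young columns, and 1 in old columns. Whether these marker levels bear on the stress genes was not tested. HMGB2, the targeted gene, stood at 27.1 and 27.4 CPM in the WT libraries and fell to 3.22 and 3.64 CPM in the knockdown libraries. It was also lower in old cells, at 121.6 CPM (young) and 38.2 CPM (old) in I79 and at 141.5 and 46.3 CPM in I10. The log2 fold change in old cells was -1.64, with an edgeR-adjusted p of 0.0036.

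Old against young cells, over both isolates. In old cells 6 of the 35 genes rose and 2 fell. The 6 that rose were ATF3, CHAC1, VLDLR, PPP1R15A, TRIB3 and EDEM1, of which all but EDEM1 are known targets of the ATF4 arm. The 2 that fell were HYOU1, an ER chaperone, and PHGDH, the first enzyme of serine synthesis. Throughout, rose and fell mean a Benjamini-Hochberg adjusted p below 0.01 in edgeR's quasi-likelihood test together with a log2 fold change beyond 0.6 in size. The 2 isolates served as replicates and 15116 genes were tested. Of all genes tested 9.57% were called, 5.75% higher and 3.82% lower. The median log2 fold change was 0.01 over the 35 genes and -0.01 over all genes tested.

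**Figure D1:**
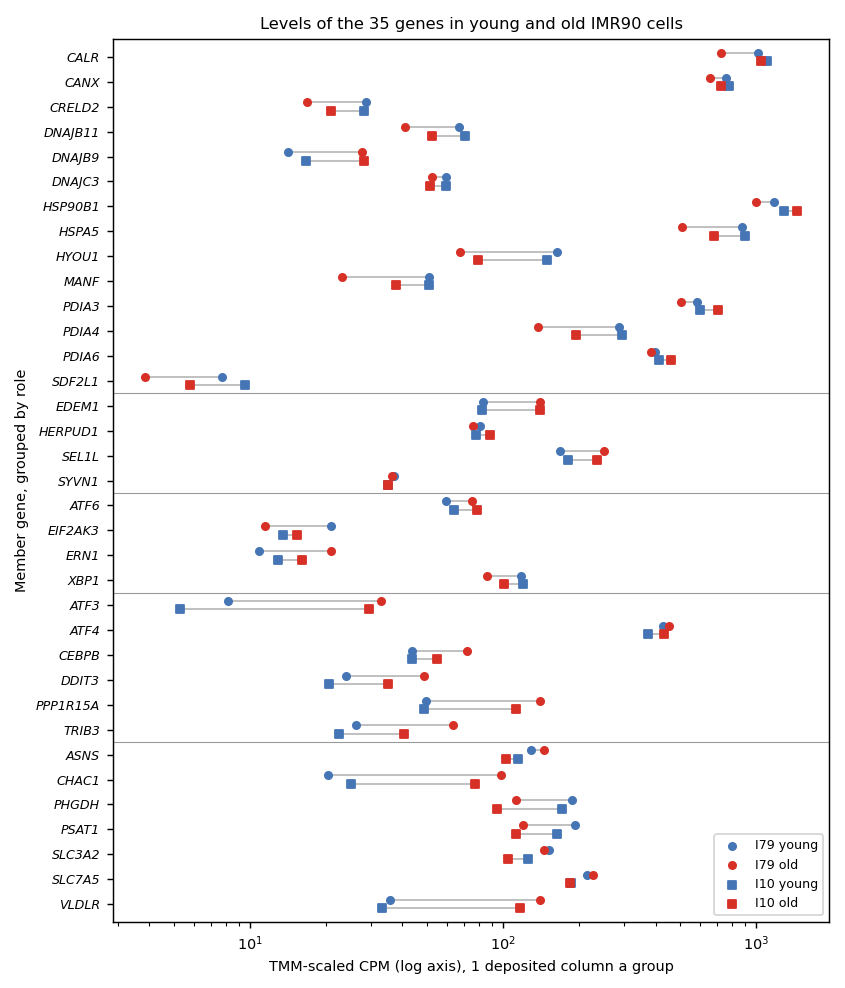
Level of each of the 35 genes in I79 (circles) and I10 (squares), young in blue and old in red, as TMM-scaled CPM on a log axis, with 1 column a group and therefore no error bar. Genes are grouped by role, and the widest gaps are those of ATF3, CHAC1 and VLDLR, which lay to the right in old cells of both isolates.

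Of the 6 regulators of the ATF4 arm, ATF3, PPP1R15A and TRIB3 rose in old cells. ATF3, a stress-induced transcription factor on chromosome 1 (212738676 to 212794119 of GRCh37, plus strand), stood at 8.19 CPM (young) and 32.8 CPM (old) in I79 and at 5.27 and 29.5 CPM in I10. Both old columns lay above both young ones, a log2 fold change of 2.24 ± 0.18 (SE) with an edgeR-adjusted p of 0.0045. The leading transcript of ATF3, by its share of the gene's TPM (a level scaled per length and depth), was not the same in I79 young (40.6%) as in the other columns (1 transcript, 50.8% to 79.7%). TRIB3, a pseudokinase that holds back ATF4 and AKT, stood at 26.3 CPM (young) and 63.4 CPM (old) in I79 and at 22.4 and 40.7 CPM in I10. It rose by 1.07 ± 0.15 (SE) on the log2 scale with an edgeR-adjusted p of 0.0096, close to the threshold. PPP1R15A (GADD34) stood at 49.5 CPM (young) and 139 CPM (old) in I79 and at 48.8 and 112 CPM in I10. The 2 young columns were nearly level and the 2 old ones were far above them, at a log2 fold change of 1.35 ± 0.12 (SE) with an edgeR-adjusted p of 0.0048.

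ATF4 itself was among the most abundant of the 35 genes per length, at 484 to 554 TPM. It stood at 427 CPM (young) and 450 CPM (old) in I79 and at 375 and 430 CPM in I10. Its log2 fold change of 0.14 ± 0.12 (SE, edgeR-adjusted p of 0.41) was about the size of its error. DDIT3, the CHOP transcription factor tied to cell death under lasting stress, stood at 23.9 CPM (young) and 48.8 CPM (old) in I79 and at 20.6 and 34.98 CPM in I10. Both old columns were above both young ones, but its log2 fold change of 0.90 (SE 0.13) had an adjusted p of 0.011 by edgeR and missed the call. The annotation places 3 other coding genes over part of DDIT3. CEBPB, a C/EBP partner of ATF4 that also drives secreted inflammatory factors, stood at 43.7 CPM (young) and 71.8 CPM (old) in I79 and at 43.6 and 54.8 CPM in I10, with an adjusted p of 0.042. All 6 regulators had log2 fold changes above 0, with a median of 0.98. With plain library totals in place of TMM scaling, which moves the median of all genes to -0.22, the value of ATF4 turned to -0.07 while the other 5 stayed above 0.

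Among the targets of ATF4 the changes went both ways. CHAC1, which breaks down glutathione, stood at 20.4 CPM (young) and 97.9 CPM (old) in I79 and at 24.9 and 77.4 CPM in I10. It rose in both isolates, by 1.95 ± 0.18 (SE) on the log2 scale with an edgeR-adjusted p of 0.0052. VLDLR, a lipoprotein receptor raised by PERK and ATF4, stood at 35.7 CPM (young) and 140 CPM (old) in I79 and at 33.1 and 116 CPM in I10. Its columns split cleanly by age, at a log2 fold change of 1.89 ± 0.11 (SE) with an edgeR-adjusted p of 0.0033. PHGDH stood at 187 CPM (young) and 113 CPM (old) in I79 and at 170 and 94.7 CPM in I10. It fell by 0.79 ± 0.10 (SE) on the log2 scale with an edgeR-adjusted p of 0.0089. PSAT1, the next enzyme of serine synthesis, stood at 192 CPM (young) and 119 CPM (old) in I79 and at 164 and 113 CPM in I10, lower in old cells of both isolates but with an adjusted p of 0.016. The other 3 did not pass the test. ASNS (asparagine synthetase) had a log2 fold change of 0.01, SLC7A5 (the LAT1 amino acid transporter) 0.03, and SLC3A2 (its heavy chain partner) -0.15, with adjusted p-values of 0.32 or more.

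Of the 14 ER chaperones and folding factors, HYOU1 fell in old cells and the other 13 did not pass the test. HYOU1, a large HSP70-type chaperone and exchange factor for BiP on chromosome 11 (118914899 to 118927938 of GRCh37, minus strand), stood at 164 CPM (young) and 67.2 CPM (old) in I79 and at 149 and 79.3 CPM in I10. It fell by 1.10 ± 0.13 (SE) on the log2 scale with an edgeR-adjusted p of 0.0076. In all, 11 of the 14 had a log2 fold change below 0 and 3 above, with a median of -0.42, where all genes tested had -0.01. Under plain library totals 13 of the 14 lay below 0. That scaling moved all genes downward, to a median of -0.22, beside -0.64 for the 14.
PDIA4, a disulfide isomerase, stood at 287 CPM (young) and 137 CPM (old) in I79 and at 293 and 194 CPM in I10 (-0.83 ± 0.15 SE on the log2 scale, edgeR-adjusted p of 0.019). HSPA5, the central ER chaperone, stood at 875 CPM (young) and 509 CPM (old) in I79 and at 900.3 and 679 CPM in I10 (-0.60 ± 0.16 SE on the log2 scale, edgeR-adjusted p of 0.045). Both were lower in old cells of each isolate, with the wider gap in I79. SDF2L1, MANF, CRELD2 and DNAJB11 had log2 fold changes between -0.86 and -0.57 and adjusted p-values between 0.026 and 0.040, and were not called. DNAJC3, a J-domain co-chaperone that also inhibits PERK, had a log2 fold change of -0.20. The lectin chaperones CALR and CANX had log2 fold changes of -0.28 and -0.16, each with an adjusted p above 0.2.

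DNAJB9 (ERdj4), a J-domain co-chaperone that keeps IRE1 inactive, stood apart from the other chaperones. It stood at 14.1 CPM (young) and 27.7 CPM (old) in I79 and at 16.6 and 28.1 CPM in I10, at a log2 fold change of 0.86 ± 0.14 (SE) with an edgeR-adjusted p of 0.014. Its old columns were both higher than its young ones, the reverse of the order for HSPA5 and PDIA4. HSP90B1, PDIA3 and PDIA6 had log2 fold changes between -0.03 and 0.05, with the isolates on opposite sides of 0. Across the 10 genes whose promoters held ERSE or ERSE-II, the median log2 fold change was -0.31 and 8 lay below 0. The 24 others had a median of 0.23, with 9 below 0, as a description with no test. They include all 6 ATF4-arm regulators and all 7 amino acid and other targets, so promoter element and role cannot be told apart here. The chaperones among them had log2 fold changes of -0.83 (PDIA4), -0.78 (MANF), -0.57 (DNAJB11), -0.20 (DNAJC3) and 0.86 (DNAJB9). After knockdown the medians were 0.01 for the 10 genes and 0.04 for the 24.

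In ERAD, EDEM1 rose and the rest did not pass. EDEM1, a lectin that sends misfolded glycoproteins to degradation, stood at 83.1 CPM (young) and 139.6 CPM (old) in I79 and at 82.2 and 139.2 CPM in I10. The isolates nearly coincided, and the log2 fold change was 0.75 (SE 0.10, adjusted p 0.0087 by edgeR). With plain library totals it was 0.54 and fell short of the fold minimum. SEL1L, the scaffold of the ERAD ligase, stood at 168 CPM (young) and 250 CPM (old) in I79 and at 180 and 234 CPM in I10 (adjusted p 0.036). SYVN1, the ligase itself, was at 35.04 to 37.06 CPM in all 4 columns, and HERPUD1 at 75.9 to 88.5 CPM.

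None of the sensors passed the test. ERN1 stood at 10.8 CPM (young) and 20.9 CPM (old) in I79 and at 12.9 and 15.97 CPM in I10 (0.62 ± 0.21 SE on the log2 scale, edgeR-adjusted p of 0.079). ATF6 held 59.5 and 63.7 CPM in the young columns and 75.2 and 78.8 CPM in the old ones (log2 fold change 0.32, SE 0.10, adjusted p 0.063). EIF2AK3 stood at 20.9 CPM (young) and 11.5 CPM (old) in I79 and at 13.5 and 15.3 CPM in I10. It was lower in old cells of I79, at a log2 ratio of -0.86. In I10 the log2 ratio of 0.18 was within counting error (-0.07 to 0.43) and turned to -0.08 with plain library totals. XBP1 stood at 117 CPM (young) and 86.4 CPM (old) in I79 and at 120.0 and 101 CPM in I10 (adjusted p 0.064). Its transcript annotated with the long coding sequence of the spliced frame (1128 bases) was listed at 0 in all 4 columns. The transcript with the 783-base coding sequence of the unspliced frame took between 83.5% and 93.4% of the estimated counts of the gene. These are estimates of how reads divide between transcripts. A value of 0 there does not show that XBP1 was unspliced, and splicing was not tested. The leading transcript was the same in all 4 columns for 31 of the 35 genes.

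This comparison rests on 1 residual degree of freedom. With 1 column left out and no isolate covariate, calls depended on the column left out, over all genes as well as the 35. No call held in every such refit. The log2 fold changes of the called genes kept their sign. They ranged from 1.91 to 2.56 for ATF3, 1.77 to 2.1 for CHAC1, 1.76 to 2.02 for VLDLR and 1.19 to 1.5 for PPP1R15A. For TRIB3 they were 0.75 to 1.38, for EDEM1 0.73 to 0.76, for HYOU1 -1.22 to -0.97 and for PHGDH -0.91 to -0.66. With plain library totals 13 genes were called, 5 higher and 8 lower, beside 1019 higher and 2111 lower of all genes, where TMM scaling gave 869 and 578.

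Within each isolate 1 column stood against 1, so no test was possible, and the counts depended on the scaling. With plain library totals (log2 CPM, prior count of 2) 8 of the 35 genes in I79 were past 0.6 higher in old cells and 12 lower, while 16.9% and 25.7% of all genes tested were. In I10, 5 were past 0.6 higher and 9 lower, against 12.5% and 29.6% of all genes. With TMM scaling the counts were 10 higher and 10 lower in I79, against 21.6% and 19.6% of all genes, and 8 higher and 3 lower in I10, against 18.6% and 18.8%. Chaperones past 0.6 lower numbered 8 of 14 in I79 and 7 in I10 with plain totals, and 7 and 2 with TMM scaling. Their median log2 ratio was -0.76 in I79 and -0.56 in I10 with plain totals, where all genes had -0.16 and -0.27, and -0.60 and -0.31 with TMM scaling, where all genes had 0.0 and -0.01.

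HMGB2 KD against WT. These libraries address which transcripts change when HMGB2 is depleted. After knockdown 5 of the 35 genes rose and 1 fell. The 5 that rose were PHGDH, PSAT1, CHAC1, SLC7A5 and ATF3, and the 1 that fell was CEBPB. All 5 lie in the ATF4 arm or among its amino acid targets, and 0 of the 14 chaperones, 4 ERAD genes or 4 sensor genes passed the test (by edgeR, with DNAJB9 closest at an adjusted p of 0.032). DESeq2 also called 6 of the 35 genes, 5 higher and 1 lower, beside 533 higher and 404 lower of all genes. Of all 15338 genes tested edgeR called 5.2%, 2.86% higher and 2.34% lower. The median log2 fold change was 0.04 over the 35 genes and 0.00 over all genes tested.

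**Figure D2:**
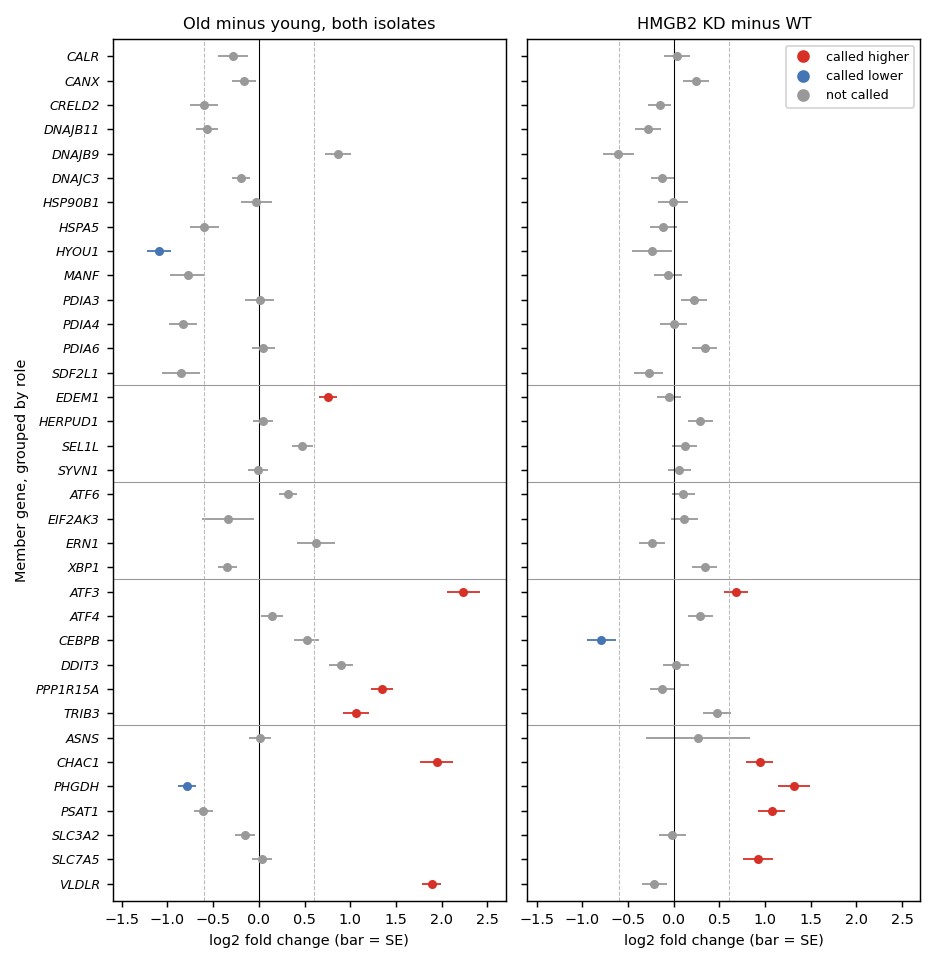
Log2 fold change of each of the 35 genes, with its standard error as a bar, for old minus young cells (left) and HMGB2 KD minus WT (right), called higher in red, called lower in blue and not called in grey, with dashed lines at the fold minimum of 0.6. PHGDH lies at -0.79 on the left and 1.32 on the right, while CHAC1 and ATF3 lie to the right of 0 in both panels.

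Of the 35 genes, PHGDH and PSAT1, enzymes of serine synthesis, had the highest log2 fold changes. PHGDH, on chromosome 1 (120191034 to 120286841 of GRCh37, plus strand), held 37.4 and 50.4 CPM in the WT libraries against 90.3 and 129 CPM in the knockdown libraries. The means, 43.9 ± 9.23 and 109.5 ± 27.1 CPM (SD, n = 2 each), lay apart without overlap, a log2 fold change of 1.32 ± 0.18 (SE) with an edgeR-adjusted p of 0.00039. PSAT1, on chromosome 9 (80912041 to 80945009, plus strand), held 47.9 and 60.7 CPM in the WT libraries against 102 and 126 CPM in the knockdown libraries. Every knockdown library was above every WT library, and the log2 fold change was 1.07 (SE 0.15, adjusted p 0.00048 by edgeR). The same 2 genes had log2 fold changes of -0.79 and -0.61 in old cells.

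CHAC1, on chromosome 15 (41245160 to 41248710, plus strand), held 118 and 124 CPM in the WT libraries against 203 and 260.3 CPM in the knockdown libraries. It rose by 0.94 ± 0.15 (SE) on the log2 scale with an edgeR-adjusted p of 0.0010, as it had in old cells by 1.95. SLC7A5 held 106 and 119 CPM in the WT libraries against 175 and 253 CPM in the knockdown libraries. Its rise of 0.92 (SE 0.17, adjusted p 0.0027 by edgeR) was carried unevenly by the 2 knockdown libraries. SLC3A2, with which SLC7A5 forms the LAT1 carrier, held 229 and 194 CPM in the WT libraries against 190 and 228 CPM in the knockdown libraries, a log2 fold change of -0.02 (SE 0.15). VLDLR, with 60.0 and 68.4 CPM against 61.0 and 49.9 CPM, overlapped between groups.

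**Figure D3:**
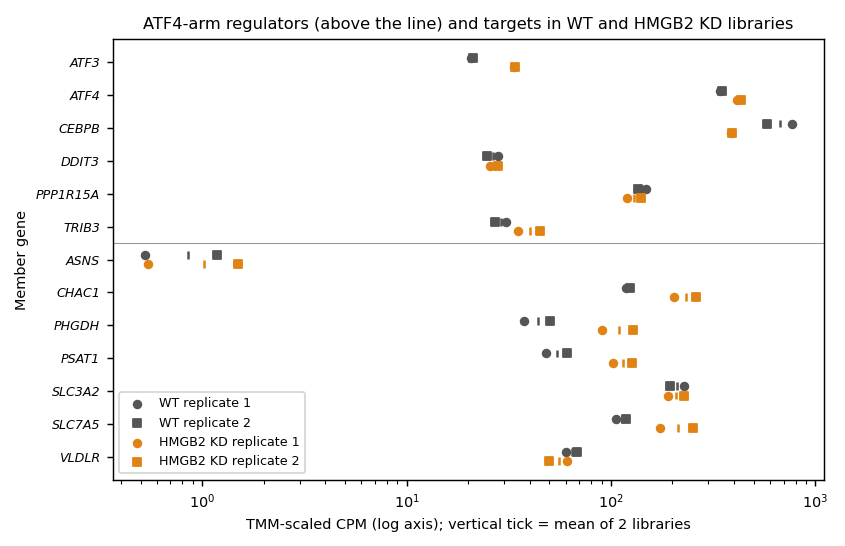
TMM-scaled CPM (log axis) of the 13 ATF4-arm regulators and targets in the 2 WT libraries (grey) and the 2 HMGB2 KD libraries (orange), with a tick at each mean. PHGDH, PSAT1, CHAC1, SLC7A5 and ATF3 lie to the right in both knockdown libraries and CEBPB to the left, and ASNS lies near 1 CPM in all 4.

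Of the regulators, ATF3 and CEBPB moved in opposite directions. ATF3 held 20.7 and 21.2 CPM in the WT libraries against 33.4 and 33.9 CPM in the knockdown libraries, a log2 fold change of 0.68 ± 0.13 (SE) with an edgeR-adjusted p of 0.0044. CEBPB held 769 and 580.1 CPM in the WT libraries against 385 and 393 CPM in the knockdown libraries, and fell by 0.79 ± 0.16 (SE) on the log2 scale with an edgeR-adjusted p of 0.0052. The 2 WT libraries differed more from each other for CEBPB than the 2 knockdown libraries did. ATF4 held 341 and 351 CPM in the WT libraries against 414 and 435 CPM in the knockdown libraries, a log2 fold change of 0.29 ± 0.14 (SE) with an edgeR-adjusted p of 0.21. TRIB3 held 30.8 and 27.1 CPM in the WT libraries against 35.3 and 45.1 CPM in the knockdown libraries (log2 fold change 0.47, SE 0.15, adjusted p 0.060). Both were higher in each knockdown library and neither passed the test. DDIT3 and PPP1R15A, which were among the genes with the larger values in old cells, had log2 fold changes of 0.03 and -0.13, with libraries that overlapped.

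None of the 14 chaperones passed the test after knockdown. HSPA5 held 1938 and 1658 CPM in the WT libraries against 1749 and 1579 CPM in the knockdown libraries (log2 fold change -0.11, SE 0.15), and HSP90B1 had a log2 fold change of -0.01 (SE 0.16). DNAJB9 held 91.9 and 71.4 CPM in the WT libraries against 62.5 and 44.8 CPM in the knockdown libraries. Its log2 fold change of -0.61 ± 0.17 (SE, edgeR-adjusted p of 0.032) had the opposite sign to its value of 0.86 in old cells, and neither was called. XBP1 held 155 and 138 CPM in the WT libraries against 198 and 173 CPM in the knockdown libraries (log2 fold change 0.34, SE 0.14, adjusted p 0.14). The median over the 14 chaperones was -0.09, and 9 lay below 0.

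ASNS, HYOU1 and CANX were low in WT beside their level in I79 young. ASNS held between 18 and 60 reads a library, and WT stood at 0.63% of its CPM in I79 young. HYOU1 stood at 3.8% and CANX at 9.93% of their CPM in I79 young, while for the other 32 genes WT stood between 22.3% and 1470% of I79 young. The annotation places 2 overlapping genes on ASNS, 2 on CANX and 1 on HYOU1, and the part of overlap in these low levels was not tested. The log2 fold change of ASNS, 0.27, had an SE of 0.57, and no change could be told from this spread.

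Without the second HMGB2 KD library, or without the first WT library, fewer of the 35 genes and fewer of all genes were called. In the first case ATF3, CEBPB and SLC7A5 no longer passed. Their log2 fold changes were then 0.67, -0.81 and 0.64, where the full fit gave 0.68, -0.79 and 0.92. With plain library totals the same count of the 35 genes was called, 5 higher and 1 lower, beside 385 higher and 484 lower of all genes, where TMM scaling gave 438 and 359.

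Other genes of the same pathways. A further list of 39 ATF4 target and amino acid supply genes outside the 35 was read in the same fits. This list and the further lists below were chosen with earlier results of these data known. Their counts are therefore a description and no independent check. After HMGB2 knockdown 37 of them could be tested, and 13 rose and 4 fell, where 2.86% and 2.34% of all genes did. The 4 with the largest change were ADM2, a peptide hormone gene induced by ER stress, SLC1A4 and SLC6A9, carriers of neutral amino acids and of glycine, and MTHFD2, a mitochondrial enzyme of the folate cycle. SLC1A4 held 12.4 and 15.9 CPM in the WT libraries against 31.9 and 52.2 CPM in the knockdown libraries, a log2 fold change of 1.57 ± 0.21 (SE) with an edgeR-adjusted p of 0.00033. MTHFD2 held 51.6 and 63.6 CPM in the WT libraries against 128 and 146 CPM in the knockdown libraries, a log2 fold change of 1.25 ± 0.14 (SE) with an edgeR-adjusted p of 0.00011. Both were well separated between groups. ADM2, at about 1 CPM in both WT libraries, stood at 3.17 and 7.42 CPM in HMGB2 KD, and SLC6A9 had a log2 fold change of 1.25 (SE 0.23).

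The 4 that fell were GDF15, CTH, KLHL24 and SLC7A11, named after their values were seen. GDF15, a secreted stress cytokine, held 602 and 365 CPM in the WT libraries against 221 and 192 CPM in the knockdown libraries, a log2 fold change of -1.23 ± 0.20 (SE) with an edgeR-adjusted p of 0.0013. CTH and SLC7A11, the last enzyme of cysteine synthesis and the cystine carrier, had log2 fold changes of -0.97 and -0.74. The list had a median of 0.46 where all genes had 0.00. Without the second HMGB2 KD library fewer of the 37 were called, as were fewer of all genes.

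**Figure D4:**
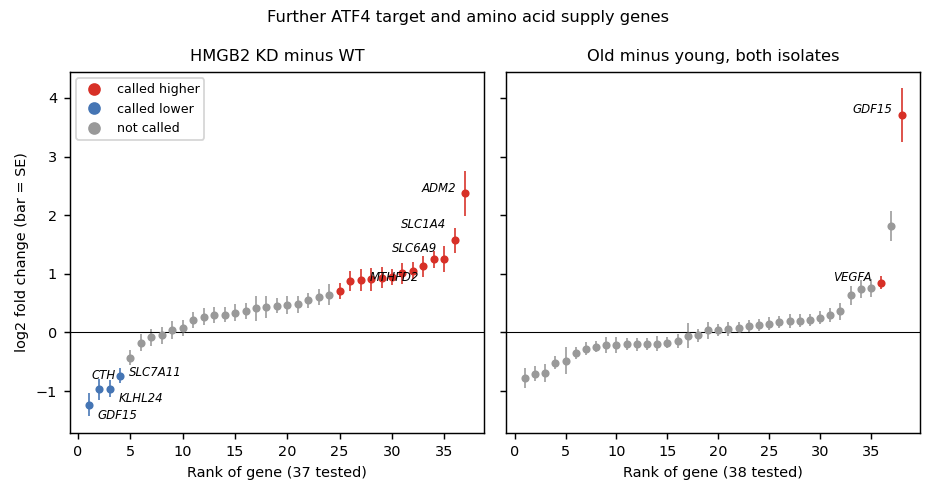
Log2 fold change with its standard error for the further ATF4 target and amino acid supply genes, ranked from lowest to highest, after HMGB2 knockdown (left, 37 genes) and in old against young cells (right, 38 genes), with called genes in red or blue. On the left 13 genes are called higher and 4 lower, and on the right GDF15 and VEGFA are called higher.

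In old cells 2 of 38 genes on that list rose and 0 fell by edgeR. The share that rose is near the 5.75% of all genes that did so by edgeR. By DESeq2 4 rose and 1 fell, beside 1302 higher and 865 lower of all 15116 genes tested. GDF15 stood at 12.6 CPM (young) and 304 CPM (old) in I79 and at 10.6 and 73.7 CPM in I10. It was far higher in old cells of both isolates, by 3.71 ± 0.46 (SE) on the log2 scale with an edgeR-adjusted p of 0.0080, opposite in sign to its change after knockdown. VEGFA, the vascular growth factor, had a log2 fold change of 0.85 ± 0.12 (SE) with an edgeR-adjusted p of 0.0099.

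On a further list of ER folding and ERAD genes, 4 of 26 tested rose in old cells and 0 fell (median 0.18). Of all genes tested 5.75% rose and 3.82% fell. ERO1A, the oxidase that feeds disulfide formation and is also raised by hypoxia, stood at 69.8 CPM (young) and 418 CPM (old) in I79 and at 77.9 and 285 CPM in I10 (2.22 ± 0.20 SE on the log2 scale, edgeR-adjusted p of 0.0050). SPCS3, a signal peptidase subunit, stood at 165 CPM (young) and 506 CPM (old) in I79 and at 167 and 486 CPM in I10 (1.58 ± 0.12 SE on the log2 scale, edgeR-adjusted p of 0.0041). WFS1, an ER membrane protein, rose by 1.11. ERO1A, SPCS3 and WFS1 had their old columns above their young ones in both isolates, where 11 of the 14 chaperones had log2 fold changes below 0. After knockdown 1 of 25 rose, where 2.86% of all genes did. This was TXNDC5, a disulfide isomerase, with 5.14 and 3.67 CPM in the WT libraries against 7.92 and 13.7 CPM in the knockdown libraries.

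Among 19 further signalling genes, 1 rose and 1 fell in each comparison, where 5.75% and 3.82% of all genes did in old cells and 2.86% and 2.34% after knockdown. CREBRF, which destabilises the ER stress factor CREB3, rose in old cells by 1.53 ± 0.12 (SE) on the log2 scale with an edgeR-adjusted p of 0.0042 and fell after knockdown by 0.75 (SE 0.15, adjusted p 0.0048). CREB3L1, a membrane-bound factor that drives collagen secretion, held 57.2 and 85.7 CPM in the WT libraries against 167 and 248 CPM in the knockdown libraries, a log2 fold change of 1.54 ± 0.20 (SE) with an edgeR-adjusted p of 0.00034. CREB3L2, its relative, fell in old cells by 0.92 (SE 0.11, adjusted p 0.0072). No eIF2 kinase, eIF2 subunit or eIF2B subunit on the list was called in either comparison.

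ICM-treated cells. The ICM libraries can be set only beside I79 young, whose reads were assigned in another way, so the way of counting and the treatment cannot be told apart and no test was run. Levels were taken as log2 CPM over shared genes with a prior count of 2. Of the 35 genes 10 were past 0.6 higher in ICM and 7 lower, and of the 13160 shared genes with a mean of at least 1 CPM, 28.8% and 29.7% were. By the same steps WT, which was not treated with ICM, had 15 of the 35 genes past 0.6 higher and 6 lower, against 19.5% and 21.9% of all genes. The count of higher genes in ICM is near its background.

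**Figure D5:**
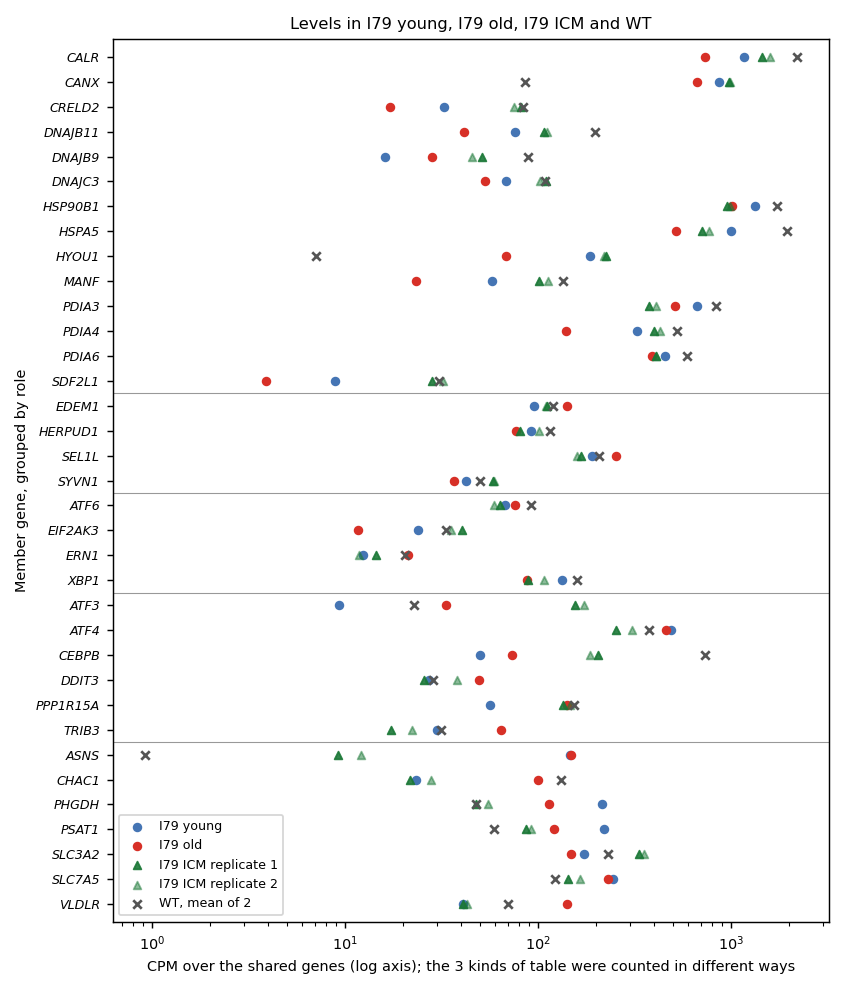
CPM over the shared genes (log axis) of each of the 35 genes in I79 young (blue), I79 old (red), the 2 I79 ICM libraries (green triangles) and WT (grey crosses, mean of 2), which were counted in different ways. ATF3 lies at 154 and 174 CPM in ICM and at 9.34 CPM in I79 young, while ASNS, HYOU1 and CANX have their lowest values in WT.

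ATF3 had the highest ratio, at 9.34 CPM in I79 young, 33.3 in I79 old and 154 and 174 in the ICM libraries. The log2 ratio was 4.12 for ICM and 1.28 for WT, and it was 3.29 for ICM with coding-region reads only. PPP1R15A stood at 56.4 CPM in I79 young, 141 in I79 old and 134 and 147 in ICM, and WT stood at 153 ± 9.98 CPM (SD, n = 2). CEBPB stood at 49.8 CPM in I79 young and 203 and 185 in ICM, with WT higher still at 732 ± 146 CPM (SD, n = 2). For these genes ICM and WT both lay above I79 young.

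For other genes the ICM libraries lay far from I79 old. CHAC1 stood at 23.2 CPM in I79 young, 99.3 in I79 old and 21.8 and 28.0 in ICM. TRIB3 stood at 30.0 CPM in I79 young, 64.3 in I79 old and 17.3 and 22.2 in ICM, and VLDLR at 40.7, 142 and then 40.7 and 42.9. For CHAC1, TRIB3 and VLDLR the ICM libraries lay near or below I79 young and I79 old well above it. WT stood at 131 CPM for CHAC1, 31.4 for TRIB3 and 69.6 for VLDLR. The chaperone PDIA4 stood at 327 CPM in I79 young, 139 in I79 old and 397 and 428 in ICM, and MANF, a secreted ER protein, at 58.0, 23.5 and then 101 and 113. For PDIA4 and MANF, WT also lay above I79 young, at 521 and 134 CPM. The median log2 ratio over the 14 chaperones was 0.36 for ICM and 0.79 for WT. PHGDH stood at 213 CPM in I79 young, 115 in I79 old and 47.5 and 55.2 in ICM, beside 47.6 ± 9.98 CPM in WT (SD, n = 2), so ICM and WT were both far below I79 young.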

How the data were processed

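The 35 genes and all gene lists were chosen with earlier results of these data known. For WT and HMGB2 KD the deposited tables hold whole read counts of genes. For old and young cells the authors deposited estimated counts and TPM of transcripts, with 1 column a group that is either 1 replicate or a pool. The ICM tables deposited by the authors hold estimated counts split over parts of the transcript, here summed. STAR 2.6.0c, featureCounts, DESeq2 and deepTools with GRCh37 are named in the submitters' processing notes, while the tables of WT and HMGB2 KD end with summary rows in the style of htseq-count (16.92% to 18.02% of the totals, left out). The use of strand is not given in the sources used here. Transcript estimates were summed per gene through GENCODE v44 lifted to GRCh37 (97.2% to 97.4% of reads matched) and rounded.

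Differences were tested with edgeR 4.0.16 in R 4.3.3 (quasi-likelihood, TMM, filterByExpr, Benjamini-Hochberg), the thresholds following the methods of the study. Each SE is the log2 fold change divided by root F. The knockdown fit held 2 libraries against 2, and old was compared with young with isolate as a covariate. DESeq2 1.42.0, other scalings and filters, 1 RUVs factor, a replicate block and leaving out each library were tried. Nothing states that libraries of a group came from separate cultures, so p-values measure the spread between libraries, which may be technical. Named genes are the 35 members, the 4 largest called genes of each further list and comparison, and HMGB2. A result under this rule is not reported here. The script for the fits was tested on simulated data. Promoters came from RefSeq (GRCh38.p14), gene positions from GENCODE on GRCh37, and neither was converted.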

Additional observations from a re-analysis of the deposited data

Results flagged for a closer look

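In 4 of the 35 genes the isolates moved in opposite directions between young and old, with 95% counting intervals (Clopper-Pearson, from the counts of each old and young column with TMM scaling, for counting error only) on opposite sides of 0. The difference between isolates was not tested, since each group had 1 column. The share of all genes tested that do so is not given here, so 4 of 35 cannot be set beside a background. Where a group had 2 libraries, they differed by more than counting error. The chi-square per degree of freedom was 27.1 in WT, 41.4 in HMGB2 KD and 2.23 in I79 ICM. HSP90B1 had a log2 ratio of -0.23 (-0.26 to -0.20) in I79 and 0.17 (0.15 to 0.20) in I10, a difference of -0.40. PDIA3 had -0.21 in I79 and 0.23 in I10, a difference of -0.44. PDIA6 had -0.06 and 0.16, a difference of -0.22. ASNS had 0.18 and -0.15, a difference of 0.33. With plain library totals no pair of ratios lay on clearly opposite sides of 0: the values were -0.39 and -0.08 for HSP90B1, -0.37 and -0.03 for PDIA3, -0.22 and -0.10 for PDIA6, and 0.01 and -0.41 for ASNS.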

How the results depend on the processing

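The number of the 35 genes called after HMGB2 knockdown was 6, and 6 or 7 under each alternative that kept all libraries (DESeq2, other scalings, no filter, an adjusted p under 0.05, 1 RUVs factor). It ranged from 3 to 6 when 1 library was left out (3 without HMGB2 KD replicate 2), that of all genes from 312 to 999, and that of the further ATF4 targets from 6 to 19. With the replicate number as a block, 1243 of all genes, 7 of the 35 and 19 further targets were called. Deviations of libraries with the same number correlated at 0.124, over 2 pairs only, so the pairing is a shared number and no more. In old against young cells the 8 calls became 15 at an adjusted p under 0.05, 17 with no filter and 13 with plain totals, and ranged from 0 to 18 when 1 column was left out. All genes called went from 1447 to 3860, 4251 and 3130 under the same settings and ranged from 0 to 3890. The further ATF4 targets called, 2 of 38, became 9, 8 and 7 there, 5 with DESeq2, 4 with counts rebuilt from TPM and 1 without the isolate covariate, and ranged from 0 to 6. The cause of these changes was not tested. Where a count was 0 (edgeR), 4411 and 4435 genes had an unadjusted p under 0.05.

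Signs turned only for log2 fold changes near 0 or for ASNS. After knockdown they turned with plain totals for CALR (-0.03), DDIT3 (-0.04), PDIA4 (-0.06) and SYVN1 (0.0), with 1 RUVs factor for ASNS (-0.66), EDEM1 (0.0), HSP90B1 (0.17) and MANF (0.08), and for PDIA4 with DESeq2 (0.0), its size factors (0.0) and no filter (-0.01). In old cells they turned with plain totals for ASNS (-0.2), ATF4 (-0.07), HERPUD1 (-0.16), PDIA3 (-0.2), PDIA6 (-0.16) and SLC7A5 (-0.18), with no filter for ASNS (-0.01) and PDIA3 (-0.01), and with counts from TPM for PDIA3 (-0.02). With 1 library left out after knockdown, values ranged from -0.64 to 0.96 for ASNS, -0.03 to 0.1 for CALR, -0.07 to 0.12 for DDIT3, -0.15 to 0.03 for EDEM1, -0.08 to 0.28 for EIF2AK3, -0.21 to 0.17 for HSP90B1, -0.22 to 0.0 for HSPA5, -0.28 to 0.19 for MANF, -0.14 to 0.15 for PDIA4 and -0.15 to 0.11 for SLC3A2. With 1 column left out in old cells, they ranged from -0.24 to 0.26 for ASNS, -0.07 to 0.16 for HERPUD1, -0.3 to 0.24 for HSP90B1, -0.23 to 0.25 for PDIA3, -0.09 to 0.19 for PDIA6, -0.39 to 0.07 for SLC3A2, -0.11 to 0.18 for SLC7A5 and -0.07 to 0.02 for SYVN1. The further ATF4 targets were run through these settings after the data were seen.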
